A study of Helicoverpa armigera with 12 samples.

Results

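The genes described here are nanos, vasa and aubergine of the cotton bollworm moth *Helicoverpa armigera*, followed through development and between the adult sexes. They are represented by 8 assembled transcript sequences (contigs) of 99711 in all. These are a nanos-like contig, a nanos-M contig, 2 contigs described as vasa-like and 4 contigs described as aubergine protein. The assembler grouped the 2 vasa contigs as isoforms of 1 unigene (a set of contigs treated as 1 gene) and the 4 aubergine contigs as isoforms of another, so that the 8 contigs belong to 4 of 73709 unigenes. They were chosen by their annotated names with the FPKM levels of all 12 libraries already in view, so those levels are given as a description, with no test.

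RNA was taken from whole bodies of 1st-instar larvae on day 3 (4 pools of 30 animals), of 5th-instar larvae on day 1 (4 pools of 10 animals), and of females and males on the first day after eclosion (2 pools of 10 animals per sex). No animal was treated, and no strain is stated in the labels. The sex of the larvae is not stated. The 2 female libraries are numbered 3 and 4 and the 2 male libraries 1 and 2, as in their titles. Levels are FPKM, fragments per kilobase of contig scaled to the mapped fragments of the library, so that genes can be compared per length. FPKM values do not give the depth of each library, and read totals were not used here. Each pool holds many animals, and nothing says that the pools came from separate broods, so the spread between libraries may be in part technical.

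In insects the germ line is set apart early, and its cells carry their own set of RNA regulators. Nanos is an RNA-binding zinc-finger protein that represses translation together with Pumilio and maintains germ cells, and the silkworm has several nanos genes, named with letters such as M, O and P. Vasa is a DEAD-box RNA helicase and a widely used marker of germ cells. Aubergine is an Argonaute protein of the PIWI class; with piRNAs, small RNAs of the germ line, it cleaves transposon RNA, and in *Drosophila* it acts with AGO3 and with scaffold proteins that carry Tudor domains. In the ovary, nurse cells make large amounts of such RNAs and pass them to the growing oocyte.

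The protein domains found by the authors in the contigs were those of the 3 families. The nanos-like contig (c62723_g1_i2) carried a nanos RNA-binding domain at residues 196 to 249 of its reading frame, and nanos-M (c54488_g1_i1) carried one at residues 146 to 199. Both vasa contigs (c62915_g3_i1 and c62915_g3_i2) had a DEAD-box helicase domain at residues 202 to 381 and a helicase C-terminal domain at residues 450 to 525. All 4 aubergine contigs (c64246_g2_i1 to c64246_g2_i4) had a PAZ domain, which holds the end of the small RNA, at residues 321 to 448 and a Piwi domain, the slicer part, at residues 596 to 887. The domain positions did not differ between the isoforms of a gene.

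The nanos-like contig had 0.198, 0.036, 0.216 and 0 FPKM in the 4 libraries of 1st-instar larvae. In 5th-instar larvae it had 0.432, 0.226, 0.537 and 0.235 FPKM. In adults it had 90.0 and 81.6 FPKM in females, against 0.179 and 0.280 FPKM in males. It was thus close to the lower end of the scale in every library that was not female, and its lowest female value was 152-fold above its highest value in the other 10 libraries. The female mean, 85.8 ± 5.98 FPKM (SD, n = 2), was 374-fold the male mean of 0.230 ± 0.071 FPKM (SD, n = 2), and it ranked at percentile 99.0 of the 65892 contigs above 0 in females. Below the females, the ranges of 5th-instar larvae and males overlapped, as did those of males and 1st-instar larvae.

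Nanos-M had 0.582, 0.226, 0.552 and 0.390 FPKM in 1st-instar larvae. It had 2.40, 1.92, 4.35 and 4.96 FPKM in 5th-instar larvae. Adult females had 52.2 and 45.8 FPKM, against 0.910 and 1.24 FPKM in adult males. Unlike the nanos-like contig it was also above 1 FPKM in all 4 libraries of 5th-instar larvae, and none of the 4 groups overlapped. The share of all contigs with such separate groups was not counted. Non-overlap, here and for the genes below, is therefore only a description of the values. The means were ordered as females (49.0 ± 4.51, n = 2), 5th-instar larvae (3.41 ± 1.47, n = 4), males (1.07 ± 0.231, n = 2) and 1st-instar larvae (0.438 ± 0.164 FPKM, SD, n = 4).

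Summed over its 2 contigs, vasa had 24.5, 24.9, 21.0 and 32.8 FPKM in 1st-instar larvae. It had 5.07, 10.2, 11.8 and 11.2 FPKM in 5th-instar larvae. The sum was 70.7 and 89.0 FPKM in adult females, against 2.41 and 4.74 FPKM in adult males. Vasa was therefore highest in females and lowest in males, with the 1st-instar larvae in second place, and the 4 groups did not overlap. The female mean was 22.3-fold the male mean and 3.10-fold the mean of 1st-instar larvae. The 5th-instar mean, 9.54 ± 3.05 FPKM, was 0.370 of the 1st-instar mean, 25.8 ± 5.00 FPKM (SD, n = 4 each).

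Aubergine, summed over its 4 contigs, had 30.2, 33.1, 32.1 and 32.0 FPKM in 1st-instar larvae. In 5th-instar larvae the sum was 26.6, 17.9, 26.5 and 25.02 FPKM. It reached 151 and 173 FPKM in adult females, against 8.91 and 10.2 FPKM in adult males. The order was the same as for vasa, again with no overlap between groups. The steps between larval stages were smaller than for vasa, the 5th-instar mean being 0.754 of the 1st-instar mean. Of the 4 genes as counted here it had the highest mean FPKM in each group. It is a sum over 4 contigs, whereas vasa is a sum over 2 and each nanos entry is 1 contig. Summed over all 4 contigs of its unigene, not all described as nanos, the nanos-like unigene had higher means than aubergine in each group. These were 37.6 FPKM in 1st-instar larvae, 26.4 in 5th-instar larvae, 246 in females and 17.7 in males. The female mean, 162 ± 15.3 FPKM (SD, n = 2), was 16.9-fold the male mean of 9.57 ± 0.935 FPKM (SD, n = 2).

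**Figure D1:**
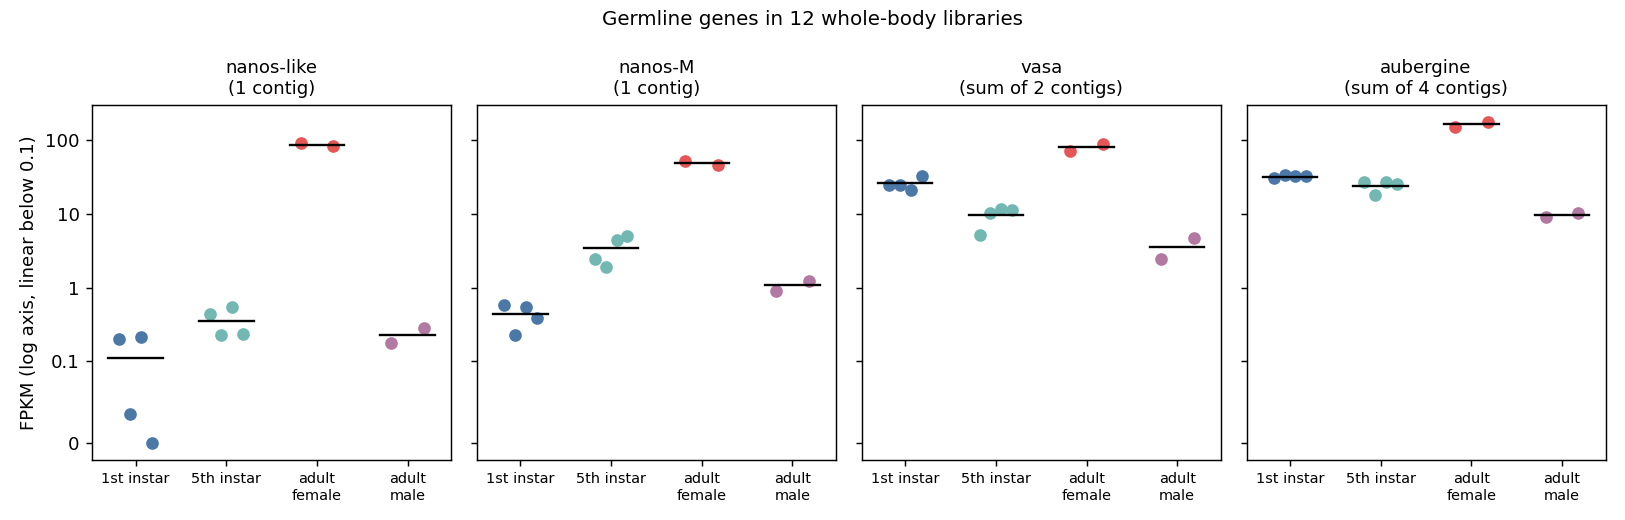
FPKM of nanos-like, nanos-M, vasa (sum of 2 contigs) and aubergine (sum of 4 contigs) in each of 12 libraries, with 1 point per library and a line at the group mean, on a log axis that is linear below 0.1. The female libraries are the highest in all 4 panels. Vasa and aubergine come next in 1st-instar larvae, while the nanos-like contig and the nanos-M contig are below 1 FPKM there. Other contigs of the nanos-like unigene are not included.

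The larval order therefore differed between the genes. In 5th-instar larvae, against 1st-instar larvae, nanos-M was higher by 1.56 ± 0.238 on the log2(FPKM + 1) scale (estimate ± SE of limma, a linear model fitted to all contigs). On the same scale the vasa sum was lower, at -1.39 ± 0.276. The aubergine sum differed by -0.41 and nanos-like by 0.29. Because 1 is added before the logarithm, this scale understates differences of low contigs such as nanos-like. The median difference of all 27678 contigs with a mean of at least 1 FPKM was 0.01.

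The individual isoforms showed the same order less cleanly. The first vasa contig had 0.918 and 2.43 FPKM in males, against 2.42 to 5.66 FPKM in 5th-instar larvae, so that these ranges overlapped slightly. The second had 1.49 and 2.31 FPKM in males, against 2.66 to 7.61 FPKM in 5th-instar larvae, with no overlap. Each of the 4 aubergine contigs was between 32.1 and 55.4 FPKM in females, and between 1.90 and 2.88 FPKM in males. In 5th-instar larvae, against 1st-instar larvae, the aubergine isoforms i1 and i2 did not overlap, whereas i3 (4.31 to 7.46 against 7.43 to 8.09 FPKM) and i4 (4.42 to 6.72 against 6.44 to 7.28 FPKM) did.

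Between the adult sexes, the differences of female minus male adults on the log2(FPKM + 1) scale were 6.14 for nanos-like, 4.59 for nanos-M, 4.18 for the vasa sum and 3.95 for the aubergine sum. The single contigs of vasa differed by 3.84 and 3.96, and those of aubergine by 3.52 to 3.67. The median difference of all contigs was -0.09. All 8 contigs were higher at an adjusted p below 0.05 in limma and 0 were lower, where 5.56% of all contigs were higher and 6.82% lower. Since the contigs were picked with the values of all libraries known, that count and those of the next comparisons are no evidence about them, and nothing is read from them. All 8 passed the filter on the mean over 12 libraries, nanos-like only through its female values. In whole bodies, fewer germ cells and less of an RNA per cell cannot be told apart.

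In male adults, against 5th-instar larvae, 6 of the 8 contigs were lower at the same threshold (nanos-M, the second vasa contig and all 4 aubergine contigs), where 18.8% of all contigs were lower and 12.6% higher. The difference was -1.03 for nanos-M, -1.19 for the vasa sum and -1.23 for the aubergine sum, beside a median of -0.21 over all contigs. Scaling each library to the same sum (TPM) moved the median of all contigs to 0.33 and these differences to -0.48, -0.46 and -0.40, and it turned that of nanos-like, -0.14, to 0.07. Summed FPKM was lower in each adult library than in any larval library, so differences between adults and larvae depend on the scale. In female adults, against 5th-instar larvae, all 8 contigs were higher at that threshold, where 8.85% of all contigs were higher and 19.8% lower. The differences were 6.004 for nanos-like, 3.56 for nanos-M, 2.99 for the vasa sum and 2.72 for the aubergine sum, and under TPM scaling 7.10, 4.80, 4.27 and 4.03. In 5th-instar larvae, against 1st-instar larvae, 3 of the 8 contigs passed the threshold (nanos-M higher and both vasa contigs lower), where 45.7% of all contigs did, 21.3% higher and 24.4% lower. These 3 comparisons share the libraries of 5th-instar larvae or of adults with each other and with the comparison of the sexes.

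The share of an isoform within its gene does not use the level of the gene, and was compared between stages. It is computed from the same FPKM values that were in view when the contigs were chosen. The p-values below are therefore not independent of that choice. For vasa, isoform i1 made up 58.7 to 64.0% of the summed FPKM in 1st-instar larvae. It made up 31.7 to 53.9% in 5th-instar larvae. Its share was 44.5 and 45.6% in female adults and 38.1 and 51.3% in male adults. The share was above that of i2 in all 4 libraries of 1st-instar larvae, and below it in 6 of the other 8 libraries. The mean was 45.3 ± 9.51% in 5th-instar larvae, against 60.5 ± 2.42% in 1st-instar larvae (SD, n = 4 each), a difference of -15.1 percentage points (two-sided exact permutation test, p = 0.0286, the smallest that 4 against 4 libraries can give; adjusted p = 0.214 over 15 tests). Adults had 44.9 ± 5.42%, which was -15.6 points from 1st-instar larvae (exact permutation test, p = 0.0286, adjusted p = 0.214). Neither difference passed the adjusted threshold.

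Aubergine isoforms were close to equal shares. The group means of the 4 contigs lay between 20.7 and 29.9%. Isoform i1 had the highest mean share in 1st-instar larvae, 29.9 ± 1.05% (SD, n = 4), and i4 the lowest, 21.8 ± 0.388%. In females, i1 took 21.3% in one library and 32.1% in the other, and i3 took 31.0% and 21.8%. Of the 15 stage tests, 2 had an unadjusted exact p below 0.05, both of vasa, and 0 had an adjusted p below 0.05. At least 9 of the 15 would have had to reach the smallest exact p of 0.0286 for any of them at that p to pass after adjustment. The authors' program divides reads among isoforms that share most of their sequence, which limits how well such shares can be known.

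**Figure D2:**
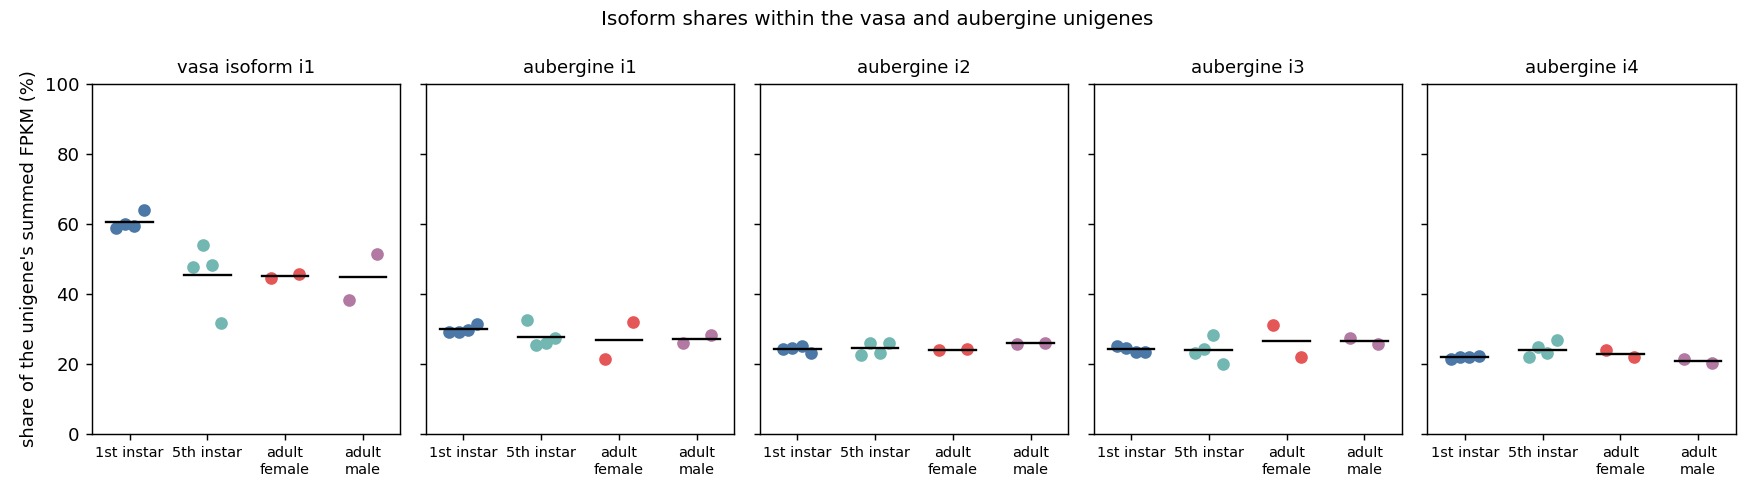
Share (%) of vasa isoform i1 and of aubergine isoforms i1 to i4 in the summed FPKM of their unigene, 1 point per library, with lines at the group means. Vasa i1 lies above 58% in the 4 libraries of 1st-instar larvae and at 31.7 to 53.9% in the other 8; the aubergine isoforms stay between 19.9 and 32.6%.

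The nanos-like contig is 1 of 4 contigs of its unigene, and the other 3 followed it only in part. Their means were also highest in females, but they were not near 0 in larvae and males. Contig i1 was described as a putative angiomotin, a protein of cell junctions, but it had a second reading frame with the nanos domain at the same residues, 196 to 249. It had 4.56 to 13.0 FPKM in larvae, and in adults 38.5 and 15.4 FPKM in females, against 3.88 and 4.21 FPKM in males. Contig i3, with no description, had 20.1 and 150 FPKM in females, against 2.13 and 19.9 FPKM in males. In larvae it had 3.46 to 6.41 FPKM in the 1st instar and 8.535 to 23.1 FPKM in the 5th. Contig i4, also without a description, had 67.7 and 28.2 FPKM in females, against 1.57 and 3.29 FPKM in males. In larvae it had 16.4 to 28.4 FPKM in the 1st instar and 2.445 to 10.1 FPKM in the 5th. In females, these 3 contigs differed widely between the 2 libraries, where i2 did not. As a share of the unigene, i2 took 41.6 and 29.6% in the female libraries and between 0 and 2.31% in the other 10. The sum of all 4 contigs was 216 and 275 FPKM in females, against 7.76 and 27.7 FPKM in males, a ratio of means of 13.9. In larvae the sum was 31.1 to 47.0 FPKM in the 1st instar and 21.0 to 35.7 FPKM in the 5th. Levels near 0 outside females were seen for i2 and not for i1, which carries the same domain.

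**Figure D3:**
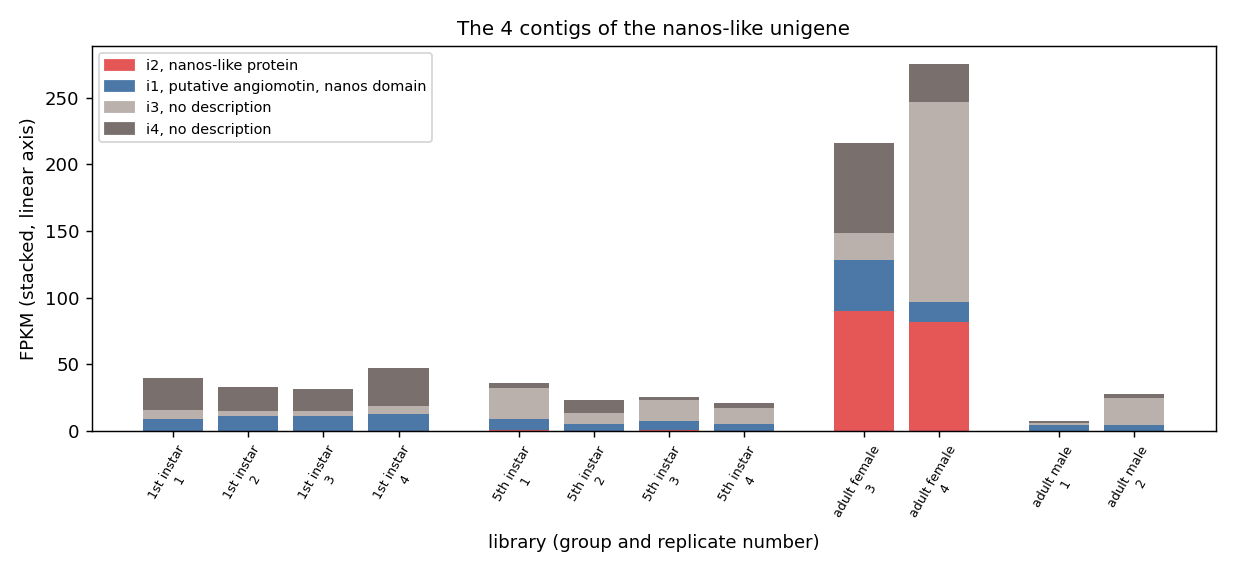
Stacked FPKM of the 4 contigs of the nanos-like unigene in each library, on a linear axis from 0. Contig i2, the nanos-like protein, is visible only in the 2 female libraries (90.0 and 81.6 FPKM), whereas the other 3 contigs are present in larvae and males as well.

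Another 5 contigs, of 13 in all, were named nanos or aubergine in the authors' annotation and are not among the 8. Zinc finger protein NANOS-O was represented by 2 isoforms with the nanos domain at residues 248 to 301. The first had 5.86 and 5.44 FPKM in females, against 0.022 and 0.047 FPKM in males. The second had 6.12 and 5.10 FPKM, against 0.090 and 0.101 FPKM. Neither exceeded 0.348 FPKM in a larval library, so their order resembled that of nanos-like at a lower level. Nanos-P (c52765_g1_i1) had another order, with 0.144 to 0.368 FPKM in 1st-instar larvae, 0.577 to 1.19 FPKM in 5th-instar larvae. In adults it had 0.383 and 0.331 FPKM in females, against 0.104 and 0 FPKM in males. A further aubergine contig (c54786_g1_i1) had 1.03 and 0.915 FPKM in females and at most 0.356 FPKM elsewhere. The last (c13293_g1_i1), named piwi in a second database, was at 1.11 and 0.180 FPKM in females and listed at 0 in the other 10 libraries.

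For each gene, the 3 described contigs with the most similar profile were found by Pearson's r of log2(FPKM + 1) over the 12 libraries, among 18731 contigs. For nanos-like these were 2 isoforms of bicaudal C, an RNA-binding protein of the *Drosophila* oocyte (r = 0.998 each), and a serine protease similar to K12H4.7 (r = 0.998), which had 52.5 and 53.8 FPKM in females and at most 0.139 FPKM in any other library. For nanos-M they were an uncharacterized protein (c59519_g1_i1, r = 0.970), a caytaxin-like protein (r = 0.953) and a purple acid phosphatase-like protein (r = 0.946). Vasa was most like a zinc finger protein (c56021_g1_i1, r = 0.985), a cyclin B-like protein (r = 0.968) and checkpoint kinase 2 (r = 0.968). The cyclin B-like contig, which drives entry into mitosis and meiosis, had 14.1 to 16.4 FPKM in 1st-instar and 0.953 to 8.13 FPKM in 5th-instar larvae, and in adults 67.1 and 40.9 FPKM in females, against 1.104 and 1.67 FPKM in males. Aubergine was most like 2 zinc finger proteins (c50714_g1_i1, r = 0.969, and c33428_g1_i1, r = 0.957) and a hypothetical protein (c61401_g6_i1, r = 0.965). These r values rest largely on the 2 female libraries, and they are given as a description of 12 points from 4 groups.

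Other genes of the germ line were taken from 3 word lists matched to the authors' descriptions: the piRNA pathway, regulators of germ plasm and egg RNA, and meiosis. They held 115 contigs, of which 89 had a mean of at least 1 FPKM and were tested. Of the 115, 38 matched a word but named another protein (such as integrin beta pat-3), so counts are also given without them. The words were chosen with earlier results of these data known. The counts and p-values of the lists are therefore a description and no independent test of these genes.

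In female adults, against male adults, 25 of the 89 contigs rose and 1 fell (limma, adjusted p below 0.05 over all contigs; 12.4% of all contigs passed). The median difference of the 89 was 0.38, beside -0.09 for all contigs. The piRNA list gave 15 higher and 0 lower of 38 with a median of 0.83, the germ plasm and egg list 9 higher and 0 lower of 41 with a median of 0.00, and meiosis 1 higher and 1 lower of 12. Without the contigs that name another protein, 25 of 60 rose and 0 fell, with a median of 0.87. With TPM scaling the split was 40 higher and 0 lower, and with quantile normalization 35 and 0. Without male library 1, 13 contigs passed in place of 26. Of the 89, 9 reached the filter only through the female values, having a mean below 1 FPKM over the other 10 libraries, and 5 of these were among the 25; of the remaining 80, 20 rose and 1 fell. Several of the contigs are isoforms of 1 gene, and on unigene sums 17 passed.

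Tudor domain-containing protein 1, a scaffold of the piRNA pathway in mice, had the greatest change. Its contig c61924_g4_i1 had 27.9 and 5.95 FPKM in females, against 0.142 and 0 FPKM in males (log2 difference 3.73 ± 0.495 SE, adjusted p = 0.000501 in limma). Isoforms i2 and i4 rose by 3.22 and 3.11 on the same scale. All 3 were several times higher in female library 3 than in female library 4, which was not so for the 8 contigs. These 3 contigs and both of bicaudal C are the 5 that passed the filter only through their female values, so they had to differ. Bicaudal C (c62030_g1_i2) had 7.01 and 6.29 FPKM in females, against 0.022 and 0.031 FPKM in males (2.90 ± 0.202 SE, adjusted p = 2.06e-06), and its isoform i1 rose by 2.87. AGO3, the PIWI-class partner of Aubergine, had 4.67 and 4.41 FPKM in its contig c61288_g1_i1 in females, against 0.880 and 0.591 FPKM in males (1.68 ± 0.279 SE, adjusted p = 0.00249). Its isoform i2 had 4.54 and 4.44 FPKM in females, against 0.903 and 0.801 FPKM in males (adjusted p = 0.00229). AGO3 was thus higher in females as aubergine was, at a much lower level per length.

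The remaining contigs that passed are named after their values were seen. Smaug, a repressor of maternal RNA, averaged 27.6 FPKM in females and 3.32 FPKM in males (log2 difference 2.71). Exuperantia, which in *Drosophila* is needed to localize bicoid RNA, averaged 57.0 FPKM in females and 8.71 FPKM in males (2.50). The helicase me31b, which holds RNAs silent in the egg, averaged 148 FPKM in females and 51.8 FPKM in males (1.499). The RNA-binding protein squid had 3 isoforms (1.31 to 1.40). On the piRNA side were the helicase TDRD12 (1.91), the Tudor protein described as Maternal protein tudor (1.42), 2 isoforms of the cochaperone shutdown (1.29 and 1.39), 5 isoforms of Tudor domain-containing protein 7 (0.77 to 0.89) and 1 of the 3 maelstrom isoforms (1.04). Egalitarian, an RNA transport adaptor (1.05), and the break repair protein MRE11 (1.64) rose too. Several of these did not have their highest mean in females. Exuperantia had 73.1 to 87.1 FPKM in 1st-instar larvae, against 76.0 and 37.9 FPKM in females. The squid isoforms averaged 193 to 226 FPKM in 1st-instar larvae, against 86.4 to 96.8 FPKM in females. TDRD12, MRE11 and the maelstrom isoform also had higher means in 1st-instar larvae than in females. The other contigs named so far in this paragraph had higher means in females. Other members of the same lists did not pass. Among them were the spindle-E isoforms (-0.25 to 0.15), the armi isoforms (0.38 and 0.45) and a tudor and KH domain protein (-0.40). Staufen (0.35) and the shutdown contigs of another unigene (1.73 and 0.68) did not pass either. The 1 contig that fell was an RMD5 homolog (8.54 and 8.37 FPKM in females, against 16.5 and 14.0 FPKM in males, -0.77 ± 0.194 SE, adjusted p = 0.0269), a ubiquitin ligase subunit matched by the word meiotic, and it did not pass with TPM scaling. Of the 26, 13 passed whichever library was left out, among them bicaudal C, AGO3, Tudor domain-containing protein 1, Smaug, exuperantia and me31b. With only the female and male libraries fitted, 4 of the 26 passed, those of bicaudal C, Smaug and me31b, whereas AGO3 (adjusted p = 0.0788 and 0.0801 in limma), Tudor domain-containing protein 1 (0.148 to 0.208) and exuperantia (0.0958) did not.

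No sex difference was detected for relatives of Aubergine and Vasa with broad roles, and no relative of Nanos was listed. The 7 contigs of Argonaute 1, which acts with microRNAs, Argonaute 2, which acts with siRNAs, and belle, a DEAD-box helicase near Vasa, differed between females and males by -0.30 to 0.12. Of these, 0 passed in limma, and 0 had an unadjusted p below 0.05. Their standard errors were 0.20 to 0.62, so with 2 libraries per sex larger differences may have been missed. Belle (c54483_g1_i1) had 57.3 and 48.8 FPKM in females, against 48.2 and 48.9 FPKM in males. In 5th-instar larvae, against 1st-instar larvae, both belle contigs fell (-1.39, adjusted p = 0.00678, and -1.22, adjusted p = 0.0175 in limma) and the other 5 did not pass. Against 5th-instar larvae, belle isoform i2 rose in female adults (1.34, adjusted p = 0.0441) and in male adults (1.28, adjusted p = 0.0467), and an Argonaute 1 contig (c65703_g1_i1) rose in male adults (0.61, adjusted p = 0.0238). Both calls against 5th-instar larvae of belle i2 held in only 2 of 12 fits with a library left out, that of Argonaute 1 was lost without male library 2 (adjusted p = 0.0804), and the larval call of belle i2 was lost without 1st-instar library 4 (adjusted p = 0.0501).

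**Figure D4:**
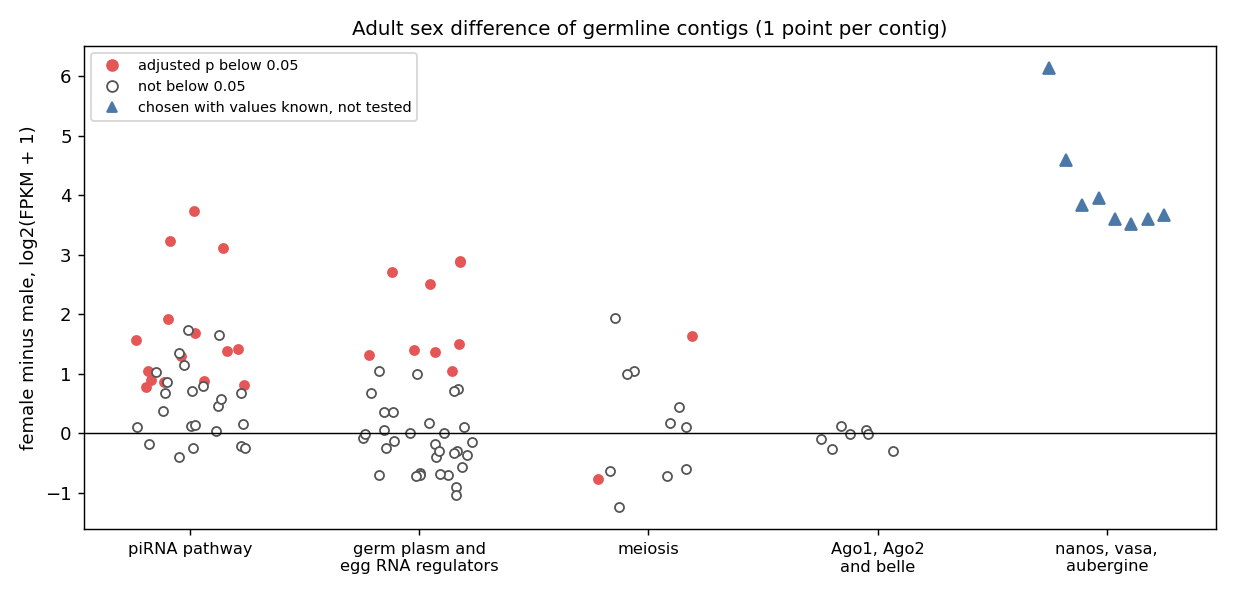
Difference of female minus male adults in log2(FPKM + 1) for contigs of 3 germline lists, for Argonaute 1, Argonaute 2 and belle, and for the 8 nanos, vasa and aubergine contigs, 1 point per contig; filled circles passed an adjusted p of 0.05. The 8 contigs, shown without a test, lie between 3.52 and 6.14, the listed piRNA contigs that passed between 0.77 and 3.73, and the relatives between -0.30 and 0.12.

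In 5th-instar larvae, against 1st-instar larvae, the lists split evenly, with 19 contigs higher and 19 lower of 89 (45.7% of all contigs passed). Without contigs that name another protein, 6 rose and 15 fell of 60. The piRNA list gave 4 higher and 9 lower of 38, the germ plasm and egg list 12 and 7 of 41, and meiosis 3 and 3 of 12. With TPM scaling the split of the 89 was 22 higher and 13 lower, and with quantile normalization 14 and 20. MRE11 fell to 3.03 to 4.90 FPKM in 5th-instar larvae, against 13.53 to 15.3 FPKM in 1st-instar larvae (log2 difference -1.73 ± 0.173 SE, adjusted p = 3.53e-05 in limma). A contig described as Asterix, here the name of a small membrane protein and not of the piRNA cofactor of *Drosophila*, fell to 44.5 to 99.3 FPKM, against 196 to 236 FPKM (-1.77). Both isoforms of the RMND1 homolog, a mitochondrial protein matched by the word meiotic, fell as well, c64102_g1_i1 being listed at 0 in all 4 libraries of 5th-instar larvae. Brain tumor, a translational repressor that works with Nanos and Pumilio in *Drosophila*, rose in its contig c61029_g1_i1 to 2.94 to 11.9 FPKM, against 1.72 to 2.09 FPKM (1.43 ± 0.308 SE, adjusted p = 0.00428). The other brain tumor unigene did not rise. Its contig c62571_g1_i2 had 1.02 to 2.75 FPKM in 5th-instar larvae, against 2.87 to 3.53 FPKM in 1st-instar larvae. In c62571_g1_i1 the ranges overlapped (0.448 to 1.85 against 0.830 to 1.65 FPKM). The 2 isoforms of integrin beta3 (1.69 and 1.48) and radial spoke head 1 (1.53), which name other proteins, also rose. AGO3 did not pass (-0.17 and -0.13).

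In female adults, against 5th-instar larvae, 26 of the 89 contigs rose and 3 fell (28.6% of all contigs passed, 8.85% higher). Of the piRNA list 15 rose and 0 fell, of the germ plasm and egg list 10 rose and 3 fell, and of meiosis 2 rose and 0 fell. The split was 60 higher and 0 lower with TPM scaling and 45 and 2 with quantile normalization, and 17 contigs passed without female library 3. Of the 26, 5 were the contigs of bicaudal C and Tudor domain-containing protein 1 that passed the filter only through their female values. Bicaudal C had 6.29 to 7.01 FPKM over its 2 isoforms in females, against at most 0.202 FPKM in 5th-instar larvae (2.88 and 2.86). Tudor domain-containing protein 1 rose by 3.73 in isoform i1, and AGO3 rose by 1.47 ± 0.241 SE (adjusted p = 0.0013) and 1.42. The 2 integrin beta3 contigs were among those that fell (-1.57 and -1.46), calls that were lost with TPM scaling.

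Male adults, against 5th-instar larvae, had 7 contigs higher and 9 lower of the 89 (31.5% of all contigs passed), 3 and 7 of 60 without contigs that name another protein. With TPM scaling the split was 30 higher and 1 lower, and with quantile normalization 11 and 3. Without male library 1, 5 contigs passed. Exuperantia fell to 7.72 and 9.69 FPKM in males, against 27.1 to 39.1 FPKM in 5th-instar larvae (-1.75 ± 0.273 SE, adjusted p = 0.000662 in limma). A pair of brain tumor isoforms rose (1.62 and 1.19), c62571_g1_i2 having 8.39 and 5.93 FPKM in males, against 1.02 to 2.75 FPKM in 5th-instar larvae; the second was lost without male library 1 (adjusted p = 0.144). A synaptonemal complex-like contig (0 and 4.91 FPKM in males, against 6.68 to 8.53 FPKM, -1.84) passed at an adjusted p of 0.045 in limma, but in only 2 of 12 fits with a library left out. A GAS2-like protein (1.64) and an RMND1 isoform (0.83) rose and 2 integrin beta3 contigs fell (-1.47 and -1.27), all naming other proteins. The calls of the integrin contigs were lost with TPM scaling, and that of the RMND1 isoform without male library 1 (adjusted p = 0.221). AGO3 gave -0.21 and -0.15 and did not pass.

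Contigs named for egg shell, yolk, testis or sperm (tektin included) moved differently from the 8 contigs. All marker lists are matched words, so they follow named proteins and do not measure the amount of a tissue. Egg shell and yolk stands for chorion, vitelline membrane, vitellogenin, egg-specific protein and yolk. Gut stands for trypsin and chymotrypsin, fat body for arylphorin, hexamerin and storage protein. Muscle stands for troponin and myosin heavy chain, neuron for synaptotagmin and synapsin. The 59 contigs named for egg shell or yolk, 53 of them above 0 in females, summed to 12082 FPKM in female library 3 and 1180 FPKM in female library 4, against 226 to 287 FPKM in males. The same list reached 1466 to 3328 FPKM in 1st-instar larvae and 1597 to 8685 FPKM in 5th-instar larvae, and its part in the levels above was not tested. The female libraries thus differed widely in egg shell and yolk RNA, whereas each of the 4 genes stood at similar levels in both. Testis and sperm contigs, 131 in number with 108 to 120 above 0 in each group, summed to 411 to 616 FPKM in females, against 831 to 1129 FPKM in males. They summed to 3341 to 6987 FPKM in 5th-instar larvae, against 855 to 932 FPKM in 1st-instar larvae, the opposite order to vasa and aubergine. Gut contigs, 208 in number, summed to 124543 to 140653 FPKM in 1st-instar larvae and 65486 to 163370 FPKM in 5th-instar larvae. In adults they summed to 412 to 534 FPKM in females, with 65 of them at 0, against 1486 to 1501 FPKM in males, with 57 at 0. The 11 fat body contigs reached 42660 to 143340 FPKM in 5th-instar larvae, against 159 to 175 FPKM in 1st-instar larvae, and were at 150 to 287 FPKM in female adults and 100.05 to 235 FPKM in male adults. The 31 muscle contigs summed to 3512 to 3771 FPKM in females, against 6899 to 9100 FPKM in males, and to 8413 to 17423 FPKM in larvae. The 35 neuron contigs lay between 45.8 and 90.2 FPKM in all libraries. The part of these tissues in the levels above was not tested. No pair of libraries held identical values.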

How the data were processed

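Whole-body poly(A) RNA of *H. armigera* was sequenced as 12 paired-end libraries. The authors trimmed reads, assembled contigs with Trinity, aligned reads with Bowtie 0.12.7, estimated abundance with RSEM 1.1.17 and deposited 1 table of FPKM per contig with BLASTx and Pfam annotation. RSEM divides reads between isoforms, so levels of single isoforms are less certain than their sums. FPKM does not give depth, and read totals were not used here.

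The 8 contigs and the word lists were chosen with earlier results of these data known. Values were taken as log2(FPKM + 1), and the 27678 contigs with a mean of at least 1 FPKM were fitted in 4 groups with limma 3.58.1 (trend, R 4.3.3), Benjamini-Hochberg adjusted over all of them at 0.05. The fit was checked on simulated data. Isoform shares used exact permutation tests (70 splits). Named from the lists were AGO3 and piwi contigs and, per comparison and direction, up to 4 contigs with the largest change whose groups did not overlap; contigs named beyond that are marked. Profile likeness used Python 3.11.15 with pandas 2.3.3. Numbered as in the titles, libraries did not deviate together (0 of 12 pairs had a correlation over 0.1). The deposited columns number the females 1 and 2. With these numbers 2 of 14 pairs, both of male and female adults (0.337), were over 0.1. With 2 libraries per sex these 2 pairs are 1 value, which cannot settle whether the sexes were paired. The main fit used no pairing, and fits with a replicate block are given below. Alternatives covered pseudocount, filter, scaling, block, samples and left-out libraries.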

Additional observations from a re-analysis of the deposited data

How the results depend on the processing

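Counts of list contigs passed (female minus male 26, 5th minus 1st instar 38, female minus 5th instar 29, male minus 5th instar 16) moved with several choices. Leaving out each library gave 13 to 32, 29 to 42, 17 to 32 and 5 to 18. In that order of comparisons, unigene sums gave 17, 23, 17 and 12, and a mean of at least 5 FPKM gave 11, 15, 8 and 10. TPM scaling gave 40, 35, 60 and 31, quantile normalization 35, 34, 47 and 14, and no filter 23, 34, 17 and 10. Fitting only the groups compared gave 4, 38, 10 and 3, with 2 residual degrees of freedom between the sexes. The fit with a replicate block gave 11, 34, 16 and 9, and with the females numbered 1 and 2 as in the deposited columns, a choice made after seeing the data, 17, 35, 14 and 9; neither numbering showed pairing of every pair. Dropping contigs that name another protein, a choice made after seeing the matches, gave 25, 21, 25 and 10. With the adult sexes as 1 group, female or male minus 5th instar became 1 comparison with 8 passed. That fit alone reversed member values, because the male contrast then holds the female libraries: nanos-M 1.27, vasa contigs 0.93 and 0.92, their sum 0.90, aubergine contigs 0.72, 0.79, 0.90 and 0.67, their sum 0.74. Robust moderation and pseudocounts of 0.1 or 0.01 kept each count within 1.5 times. Of the member values under alternatives, 782 moved by less than the spread between libraries, 119 by more and 9 reversed. Pools, not animals, were the replicates, with 2 per adult sex, and FPKM does not give depth.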

Other observations

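The assembler placed further contigs in the same clusters as vasa and aubergine. In the aubergine cluster, 3 contigs without a description were highest in females and lowest in males. Of these, c64246_g4_i2 had 23.0 to 30.03 FPKM in 1st-instar and 13.9 to 21.9 FPKM in 5th-instar larvae, and in adults 83.6 and 142 FPKM in females, against 7.83 and 12.02 FPKM in males. Contig c64246_g4_i1 had 2.81 to 5.06 FPKM in 1st-instar and 3.71 to 4.56 FPKM in 5th-instar larvae, and in adults 21.4 and 20.1 FPKM in females, against 1.75 and 1.64 FPKM in males, and c64246_g5_i1 had 5.56 to 6.96 FPKM in 1st-instar and 8.22 to 11.4 FPKM in 5th-instar larvae, and in adults 30.1 and 48.1 FPKM in females, against 2.02 and 3.26 FPKM in males. The larval order of aubergine, with the higher mean in 1st-instar larvae, was seen in c64246_g4_i2 and not in the other two. Contigs c64246_g1_i1 (0.415 and 1.79 FPKM in females, against 2.14 and 3.62 FPKM in males) and c64246_g3_i1 (0.662 and 4.90 FPKM, against 1.07 and 5.43 FPKM) were not highest in females. In the vasa cluster, the contigs outside the vasa unigene were 3 described as MyD88, an adaptor of Toll signalling, and 1 described as an uncharacterized protein. The uncharacterized contig, c62915_g1_i1, had 16.6 to 37.0 FPKM in 1st-instar larvae and was listed at 0 in the other 8 libraries.

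Among the 10 described contigs most like nanos-like were also histone H1 (73.3 and 69.3 FPKM in females, against 0.127 and 0 FPKM in males) and 3 cathepsin contigs, of which c54616_g1_i1 had 424 and 260 FPKM in females, against 0.604 and 0.225 FPKM in males. No explanation was examined for any of these patterns.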
